A study of Mus musculus with 10 samples.

Results

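Of the 14 *Cyp2c* genes measured in the chromosome 19 cluster of the mouse, 7 had lower counts in the livers of mice treated with MI-883 than in control livers. They are *Cyp2c38*, *Cyp2c39*, *Cyp2c40*, *Cyp2c67*, *Cyp2c68*, *Cyp2c69* and *Cyp2c70*, and the other 7 were raised. These 7 genes, out of 16647 listed genes, were selected on this difference between MI-883 and control livers, so their fold changes, and the counts of how many were called by a tool, are a description and not evidence of a difference. Counts were made from liver RNA of 5 control mice, gavaged with vehicle, and 5 mice gavaged with MI-883 at 5 mg/kg, 3 times per week for 4 weeks. All 10 animals were male humanized PXR-CAR-CYP3A4/3A7 mice from Taconic, 10 to 15 weeks old at the start, and all had been fed a high-fat diet (HFD) for 8 weeks before treatment and stayed on it. Both groups therefore carry the human receptor genes and the diet, and the *Cyp2c* genes are the animals' own mouse genes. MI-883 is an agonist of the human constitutive androstane receptor (CAR) and an antagonist of the human pregnane X receptor (PXR). No mice without the human genes and none on another diet were analysed here.

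The *Cyp2c* genes encode cytochrome P450 monooxygenases of the endoplasmic reticulum, which are most abundant in hepatocytes. They are known for the metabolism of drugs and steroids and for the epoxidation and hydroxylation of arachidonic acid. CAR and PXR are nuclear receptors that raise the transcription of P450 genes in response to foreign compounds, while HNF4A maintains the basal transcription of many hepatocyte genes. Mice carry many more *Cyp2c* genes than humans, and neighbouring copies can be close in sequence.

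The 7 genes are not scattered through the cluster. Ordered by their starts in GENCODE M21 they take places 5 to 10 of the 14 genes in a row, and place 14. Positions are those of RefSeq on GRCm38. *Cyp2c38* lies at chr19:39389556-39463103 and *Cyp2c39* at chr19:39347346-39569568, followed by *Cyp2c67* at chr19:39608844-39649079 and *Cyp2c68* at chr19:39688836-39741101. *Cyp2c40* lies at chr19:39767073-39812814 and *Cyp2c69* at chr19:39842660-39886769, while *Cyp2c70* closes the cluster at chr19:40153361-40187286. The RefSeq model of *Cyp2c39* spans *Cyp2c38*, which is on the opposite strand, while the GENCODE model starts beyond it at 39510862. Of the 7 genes, 6 are on the minus strand and *Cyp2c39* is on the plus strand, whereas 6 of the 7 raised genes are on the plus strand and *Cyp2c54* is on the minus strand. The nearest tested gene before the cluster, *Hells*, a chromatin remodeller, had a log2 fold change of 1.23 (SE 0.31, adjusted P = 0.0864 by edgeR). On the far side, *Pdlim1*, a cytoskeletal adaptor, had a value of -0.12 (SE 0.09, adjusted P = 0.546 by edgeR).

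**Figure D1:**
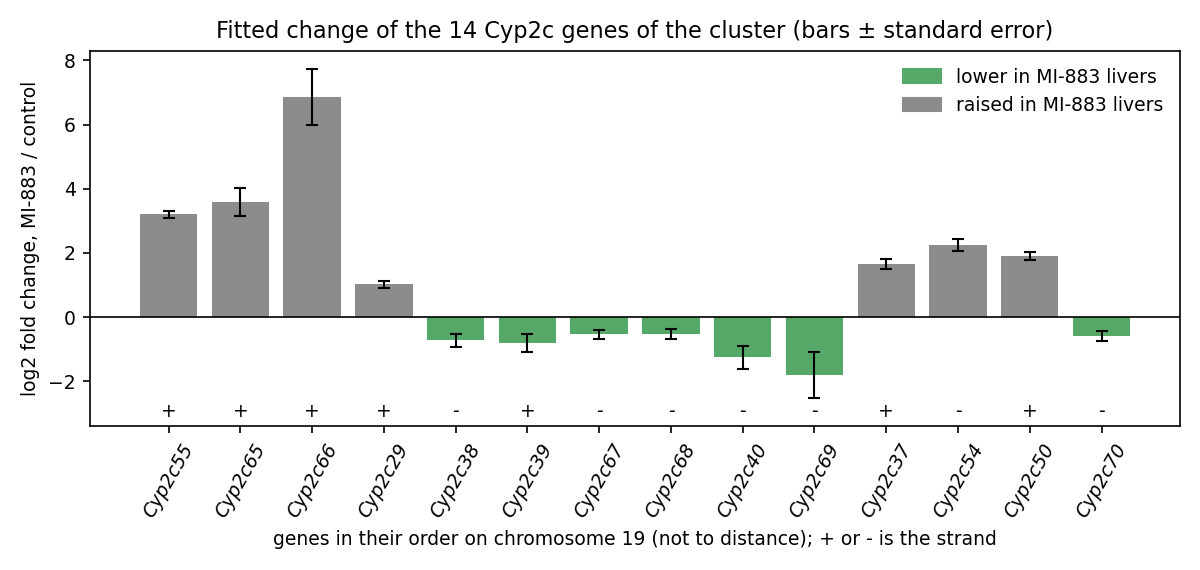
Fitted log2 fold change of MI-883 over control livers for the 14 *Cyp2c* genes in their order on the chromosome, with standard errors as whiskers and the strand below each bar. The lower genes occupy places 5 to 10 and 14, and their values run from -0.53 for *Cyp2c68* to -1.80 for *Cyp2c69*.

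The promoters are shown because the HNF4 site CAAAGTCCA recurs among the lower genes, with closely similar forms in some raised genes. The sequences are the 250 bases before the transcript start used in the RefSeq GRCm38.p6 promoter table, which for *Cyp2c67*, *Cyp2c38* and *Cyp2c29* lies inside the gene's outermost bounds and is the start from which distances are counted. They are written 5′ to 3′ on the gene's own strand, and they lie at chr19:40187287-40187536 (minus, *Cyp2c70*), chr19:39649043-39649292 (minus, *Cyp2c67*), chr19:39741102-39741351 (minus, *Cyp2c68*), chr19:39812815-39813064 (minus, *Cyp2c40*), chr19:39463076-39463325 (minus, *Cyp2c38*) and chr19:39286835-39287084 (plus, *Cyp2c29*, a raised neighbour). Capitals mark CAAAG, its full form CAAAGTCCA where present, and TATAAA, on either strand.
Cyp2c70: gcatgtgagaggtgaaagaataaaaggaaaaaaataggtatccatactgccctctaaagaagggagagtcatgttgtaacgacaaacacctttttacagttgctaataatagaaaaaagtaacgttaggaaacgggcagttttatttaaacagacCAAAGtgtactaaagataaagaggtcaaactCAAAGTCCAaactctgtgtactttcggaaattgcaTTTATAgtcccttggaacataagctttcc
Cyp2c67: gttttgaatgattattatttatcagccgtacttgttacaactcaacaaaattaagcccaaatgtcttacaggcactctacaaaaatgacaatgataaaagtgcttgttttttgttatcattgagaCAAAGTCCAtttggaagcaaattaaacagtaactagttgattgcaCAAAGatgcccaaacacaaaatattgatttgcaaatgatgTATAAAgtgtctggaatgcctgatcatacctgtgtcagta
Cyp2c68: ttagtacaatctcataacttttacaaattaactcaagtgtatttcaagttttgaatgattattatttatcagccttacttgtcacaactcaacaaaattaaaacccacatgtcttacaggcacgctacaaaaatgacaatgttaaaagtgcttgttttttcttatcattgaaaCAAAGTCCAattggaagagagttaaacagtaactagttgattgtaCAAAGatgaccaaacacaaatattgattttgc
Cyp2c40: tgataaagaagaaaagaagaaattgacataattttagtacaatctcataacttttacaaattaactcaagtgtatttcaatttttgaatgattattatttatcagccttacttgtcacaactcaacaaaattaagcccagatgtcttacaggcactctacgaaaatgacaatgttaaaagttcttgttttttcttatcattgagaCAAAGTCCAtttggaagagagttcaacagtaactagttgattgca
Cyp2c38: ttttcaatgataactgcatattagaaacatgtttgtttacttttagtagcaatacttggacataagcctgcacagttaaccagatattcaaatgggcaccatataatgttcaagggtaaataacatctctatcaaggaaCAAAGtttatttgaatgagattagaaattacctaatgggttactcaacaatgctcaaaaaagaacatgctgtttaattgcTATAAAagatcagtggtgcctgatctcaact
Cyp2c29: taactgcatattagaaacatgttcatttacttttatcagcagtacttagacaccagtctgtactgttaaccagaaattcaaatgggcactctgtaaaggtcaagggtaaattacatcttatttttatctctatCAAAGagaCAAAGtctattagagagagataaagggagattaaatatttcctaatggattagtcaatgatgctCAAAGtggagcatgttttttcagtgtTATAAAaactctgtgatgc

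CAAAGTCCA, searched on both strands, was found in 5 of the 8 promoters annotated for the 7 genes, those of *Cyp2c67*, *Cyp2c68*, *Cyp2c40*, *Cyp2c69* and *Cyp2c70*. It was also in 1 of 6 promoters of the raised genes (*Cyp2c65*) and in 0.384% of 32851 promoters of the same length. The raised *Cyp2c29* and *Cyp2c37* carried CAAAGTCTA and the raised *Cyp2c66* carried CAAAGTCCC, each 1 letter away from CAAAGTCCA. Both promoters of the lower gene *Cyp2c39* also carried CAAAGTCTA. Such near matches were not counted over all promoters, so an HNF4 site is not shown to be particular to the lower genes. The first letter of the site lay 125 bases before the start in *Cyp2c67*, 77 in *Cyp2c68*, 75 in *Cyp2c69*, 64 in *Cyp2c70* and 45 in *Cyp2c40*. Among the promoters of *Cyp2c67*, *Cyp2c68*, *Cyp2c40* and *Cyp2c69*, identity ran from 91.3% (*Cyp2c68* with *Cyp2c69*) and 77.5% (*Cyp2c40* with *Cyp2c69*) down to 47.9% (*Cyp2c67* with *Cyp2c40*). The promoter of *Cyp2c70* was 45.2% to 49.0% identical to these 4. Matches in the closest copies are not independent of each other. The shorter core CAAAG was in 8 of 8 promoters, in 5 of 6 promoters of the raised genes, and in 48.6% of all. GTTAAT, a part of the HNF1 motif, was in 3 of 8 promoters, in 0 of 6 of the raised genes and in 6.43% of all. TATAAA was in 3 of 8, in 4 of 6 of the raised genes and in 12.4% of all. AGGTCA, a nuclear receptor half-site, was in 2 of 8 promoters, in 1 of 6 of the raised genes and in 14.02% of all. AGTTCA was in 3 of 8, in 1 of 6 of the raised genes and in 11.8% of all. AGNTCA half-sites repeated in the same direction with 4 bases between them were in 0 of 8 and in 0 of 6 promoters of the raised genes, and in 0.103% of all. With so low a share their absence here says little, and bases farther upstream were not searched. The promoter of *Cyp2c38* was 75.8% identical to the upstream promoter of *Cyp2c39*. *Cyp2c39* has 2 annotated starts, and the promoter of *Cyp2c54* was not analysed here.

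Neighbouring copies also share transcript sequence, which limits how far reads can be assigned to 1 of them. Of all 100-base stretches of the *Cyp2c40* transcript in GENCODE M21, 44.1% also occur in a transcript of another gene, against 36.3% for *Cyp2c69*, 23.7% for *Cyp2c67* and 19.8% for *Cyp2c68*. All these shared stretches lie among these 4 genes, and none is shared with the raised genes. The transcripts of *Cyp2c38*, *Cyp2c39* and *Cyp2c70* share 0% of such stretches. Values of the 4 genes are therefore uncertain one by one, and their summed counts are given as well.

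Between 24014461 and 36221514 reads were counted per control liver and between 23513665 and 28349963 per MI-883 liver. Values are in CPM, counts scaled to a common library size by TMM, and the groups were compared with the quasi-likelihood test of edgeR over 13219 genes, those whose counts in the 10 livers added up to 60 or more. In that comparison 136 genes had an adjusted P under 0.05, which is 1.03% of them. The hepatocyte marker *Alb* stood at 56582 ± 4446 CPM in the control group and 50515 ± 3589 CPM in the treated group (SD, n = 5). In whole liver, fewer cells of a type and less RNA per cell cannot be told apart.

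*Cyp2c70* is the enzyme that hydroxylates bile acids at the 6β position and gives mice their muricholic acids. It had 264, 332, 330, 306 and 436 CPM in control livers 1 to 5. In MI-883 livers 1 to 5 it had 263, 227, 216, 257 and 151 CPM. Each MI-883 liver was below each control liver, but the highest MI-883 value (263.2) and the lowest control value (264.5) nearly touched. The means were 334 ± 63.2 and 223 ± 44.5 CPM (SD, n = 5), and the log2 fold change was -0.58 (SE 0.15). With the size factors of DESeq2 in place of TMM the groups overlapped.

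*Cyp2c67* had 168, 171, 193, 171 and 195 CPM in control livers 1 to 5 and 141, 108, 164, 94.8 and 110 CPM in MI-883 livers 1 to 5. The control livers lay close together, with a coefficient of variation of 7.36%, and MI-883 liver 3 came nearest to them without overlap. The means were 180 ± 13.2 and 124 ± 28.4 CPM (SD, n = 5), a log2 fold change of -0.54 (SE 0.13). *Cyp2c68* had 108, 136, 113, 147 and 172 CPM in the control livers and 99.3, 113.1, 92.9, 96.8 and 67.4 CPM in the MI-883 livers. Control liver 1 was below MI-883 liver 2, so the groups overlapped by that liver. Its means were 135 ± 26.0 and 93.9 ± 16.6 CPM (SD, n = 5), a log2 fold change of -0.53 (SE 0.15).

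*Cyp2c40*, which forms a hydroxylated product of arachidonic acid, was much lower than these. It had 38, 90, 33, 30 and 36 counts in control livers 1 to 5 and 25, 12, 22, 16 and 9 counts in MI-883 livers 1 to 5. All 5 MI-883 livers were below all 5 control livers in CPM (0.855 CPM at most against 0.869 CPM at least), and control liver 2 stood above the rest. The log2 fold change was -1.24 (SE 0.36). *Cyp2c69* was near the limit of detection, with 11, 9, 2, 5 and 21 counts in the control and 2, 4, 4, 0 and 2 counts in the MI-883 livers. Control livers 3 and 4 were below the highest MI-883 liver, and MI-883 liver 4 held no count, where a count of 0 allows up to 3. Its log2 fold change was -1.80 (SE 0.71), and its 60 counts in all were just enough for the test. In summed counts of *Cyp2c40*, *Cyp2c67*, *Cyp2c68* and *Cyp2c69*, which does not depend on how counted reads were divided among the 4, the control mean was 317 ± 33.4 CPM and the MI-883 mean 218 ± 33.3 CPM (SD, n = 5), a log2 fold change of -0.54 (SE 0.11). Whether reads that match several genes were counted is not given in the sources used here.

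*Cyp2c38* and *Cyp2c39* encode arachidonic acid epoxygenases, which form epoxyeicosatrienoic acids, and *Cyp2c39* also hydroxylates retinoic acid. *Cyp2c38* had 88.1, 97.2, 50.5, 84.5 and 87.8 CPM in control livers 1 to 5. In MI-883 livers 1 to 5 it had 56.8, 62.4, 57.6, 35.5 and 34.8 CPM. Control liver 3 was the sole control liver under any MI-883 liver, being below MI-883 livers 1, 2 and 3. The means were 81.6 ± 18.0 and 49.4 ± 13.2 CPM (SD, n = 5), a log2 fold change of -0.72 (SE 0.20). *Cyp2c39* had 117, 147, 34, 111 and 73 counts in the control and 64, 45, 50, 42 and 33 counts in the MI-883 livers. Control liver 3 was again the lowest control liver, at 1.39 CPM, and it overlapped with the MI-883 livers, which had up to 2.19 CPM. The means were 3.13 ± 1.14 and 1.81 ± 0.383 CPM (SD, n = 5), a log2 fold change of -0.80 (SE 0.27).

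**Figure D2:**
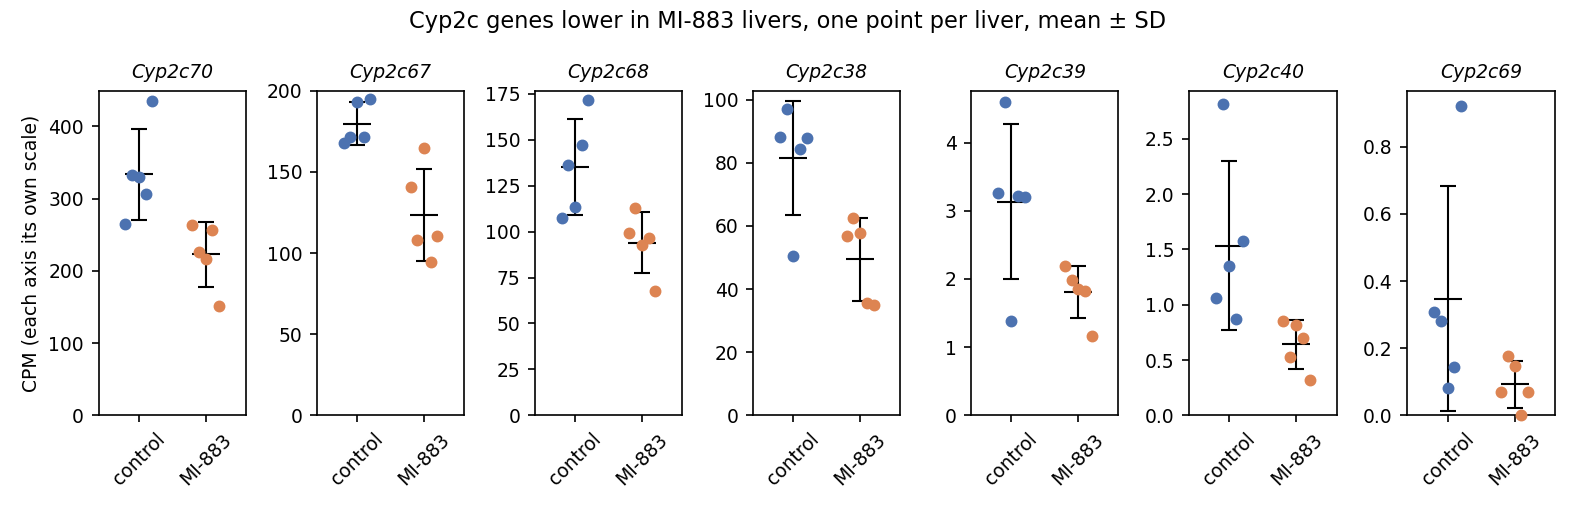
CPM of the 7 genes in each liver, with 1 point per liver and black bars for the mean ± SD of 5 livers; each panel starts at 0 and has its own scale. The 5 MI-883 livers are all below the control median for each gene, and control liver 3 lies low for *Cyp2c38* and *Cyp2c39*.

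All 7 genes had a log2 fold change below 0, as did 49.0% of the tested genes, and the 7 were selected on that. Their median was -0.72, against 0.00 over all tested genes. The MI-883 livers were all below the control livers for 3 of the 7 (*Cyp2c40*, *Cyp2c67* and *Cyp2c70*), against 1.93% of all tested genes. With total counts in place of TMM, *Cyp2c68* and *Cyp2c70* were the genes without overlap, so none of the 3 was separated under each of the scalings tried. By edgeR 0 of the 7 had an adjusted P under 0.05 (lower in MI-883 livers: 0.265% of all tested genes), although all 7 had an unadjusted P under 0.05, as did 7.49% of all in that direction. DESeq2 called *Cyp2c38*, *Cyp2c40*, *Cyp2c67*, *Cyp2c68* and *Cyp2c70*, 5 of the 7, with 1.30% of all tested genes called lower. The summed counts of *Cyp2c40*, *Cyp2c67*, *Cyp2c68* and *Cyp2c69*, fitted as 1 gene, were called lower by edgeR and DESeq2, but not with total counts, with a replicate block or in 7 of the 10 fits that left out a liver. Without control liver 3 edgeR called *Cyp2c38*, and without MI-883 liver 3 it called *Cyp2c67*.

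The lower genes were the smaller part of the cluster's output. Together they had a mean of 735 ± 98.7 CPM without and 492 ± 76.4 CPM with MI-883 (SD, n = 5), while all 14 genes had 4372 ± 571 and 9813 ± 870 CPM. Of the counts on the cluster, the 7 genes held 17.2%, 17.5%, 17.1%, 14.6% and 17.8% in control livers 1 to 5. In MI-883 livers 1 to 5 they held 6.10%, 4.80%, 6.20%, 4.64% and 3.63%. The groups did not overlap, and the mean share went from 16.9% ± 1.28 to 5.07% ± 1.08 (SD, n = 5), with most of the difference in the counts of the raised genes. Because the 14 genes were sorted into lower and raised by this same difference, a lower share follows from that choice. It is a description and not evidence.

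**Figure D3:**
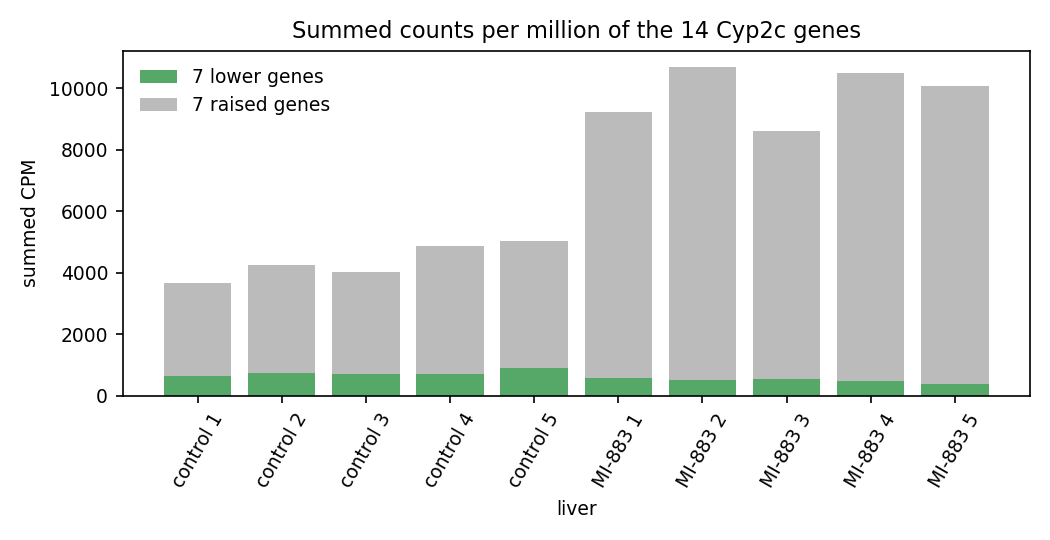
Summed CPM of the 7 lower genes (bottom, green) and the 7 raised genes (top, grey) in each of the 10 livers. The green part averages 735 CPM in the control livers and 492 CPM after MI-883, while the whole bar is higher in each MI-883 liver than in any control liver.

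To compare levels between the genes, CPM were divided by exon length. In control livers *Cyp2c70* had the highest level, 168 ± 31.9 CPM per kb, followed by *Cyp2c67* with 104 ± 7.64, *Cyp2c68* with 78.4 ± 15.1 and *Cyp2c38* with 28.4 ± 6.28 CPM per kb (SD, n = 5). *Cyp2c39* (1.72 ± 0.628), *Cyp2c40* (0.753 ± 0.375) and *Cyp2c69* (0.203 ± 0.196) followed far below, in CPM per kb. Among neighbours in this order, the control livers did not overlap between *Cyp2c70* and *Cyp2c67*, between *Cyp2c68* and *Cyp2c38*, and between *Cyp2c38* and *Cyp2c39*. They overlapped between *Cyp2c67* and *Cyp2c68*, between *Cyp2c39* and *Cyp2c40*, and between *Cyp2c40* and *Cyp2c69*, so these neighbours are not ordered beyond their spread at this length. With the count of 100-base stretches found in no other gene as length, *Cyp2c67* (134.8 at the lowest) no longer overlapped with *Cyp2c68* (131.7 at the highest), in CPM per kb.

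The variation between livers within a group was not used to choose the genes. The SD of log2 CPM within groups was 0.24 for *Cyp2c67*, 0.28 for *Cyp2c68*, 0.29 for *Cyp2c70* and 0.39 for *Cyp2c38*, against a median of 0.18 over all tested genes. It was 0.50 for *Cyp2c39*, 0.57 for *Cyp2c40* and 0.88 for *Cyp2c69*, whose counts are low. Among tested genes of a like level, the 7 stood between the 79.9th percentile (*Cyp2c40*) and the 97.6th (*Cyp2c38*). The raised genes stood between the 33.3rd percentile (*Cyp2c29*) and the 93.2nd (*Cyp2c54*), so a high spread was not particular to the lower genes.

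It was then asked whether the genes vary together from liver to liver once the group means are removed. Over the 10 livers, 20 of the 21 pairs of the 7 genes had a positive Pearson r, with a median of 0.371 and a range from -0.0379 to 0.836. The median r over all pairs of tested genes was 0. Pairs of the same gene are not independent of each other, and 0 of the 21 pairs passed the exact permutation test after Benjamini-Hochberg adjustment over the 91 pairs of the 14 genes, while 3 had an unadjusted P under 0.05. An r of at least 0.7 was found in 2 of the 21 pairs, against 3.73% of all pairs of tested genes. *Cyp2c38* and *Cyp2c39*, which share no 100-base stretch, had r = 0.836 (exact permutation P = 0.00299, adjusted P = 0.0906) and rho = 0.818 (exact permutation P = 0.0107). Within the control livers alone r was 0.985 and within the MI-883 livers 0.720. Without the 2 livers farthest from the median r was 0.420, so the size of r depended on those livers. In each pair these 2 livers were chosen by the first named gene alone. Taking out its extremes narrows its range and can lower r by itself. *Cyp2c68* and *Cyp2c70* had r = 0.819 (exact permutation P = 0.0124, adjusted P = 0.154) and rho = 0.745 (exact permutation P = 0.0241), and r was 0.486 without the 2 farthest livers. *Cyp2c67* and *Cyp2c68*, which share sequence, had r of 0.098.

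*Cyp2c* genes of both kinds were also set against each other, without a test of the difference between kinds of pairs. The 49 pairs of a lower with a raised gene had a median r of -0.204, and 20 were positive. By comparison the 21 pairs among the raised genes had a median of 0.524, with 18 of them positive and 8 at 0.7 or above. Mostly positive pairs were therefore not particular to the lower genes. *Cyp2c40* and *Cyp2c55*, a raised gene, had r = -0.795 (exact permutation P = 0.00896, adjusted P = 0.136) and rho = -0.842 (exact permutation P = 0.0102), and r was -0.838 without the 2 farthest livers. *Cyp2c40* and *Cyp2c66* had r = -0.641 (exact permutation P = 0.0183, adjusted P = 0.185). *Cyp2c66* had 0, 0, 0, 1 and 0 counts in control livers 1 to 5, so this r rests mostly on the MI-883 livers. *Cyp2c68* and *Cyp2c29* went the other way, with r = 0.684 (exact permutation P = 0.0476, adjusted P = 0.289) and 0.843 without the 2 farthest livers. These 3 were the pairs with an unadjusted P under 0.05, and 0 of the 49 passed after adjustment in the exact permutation test.

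**Figure D4:**
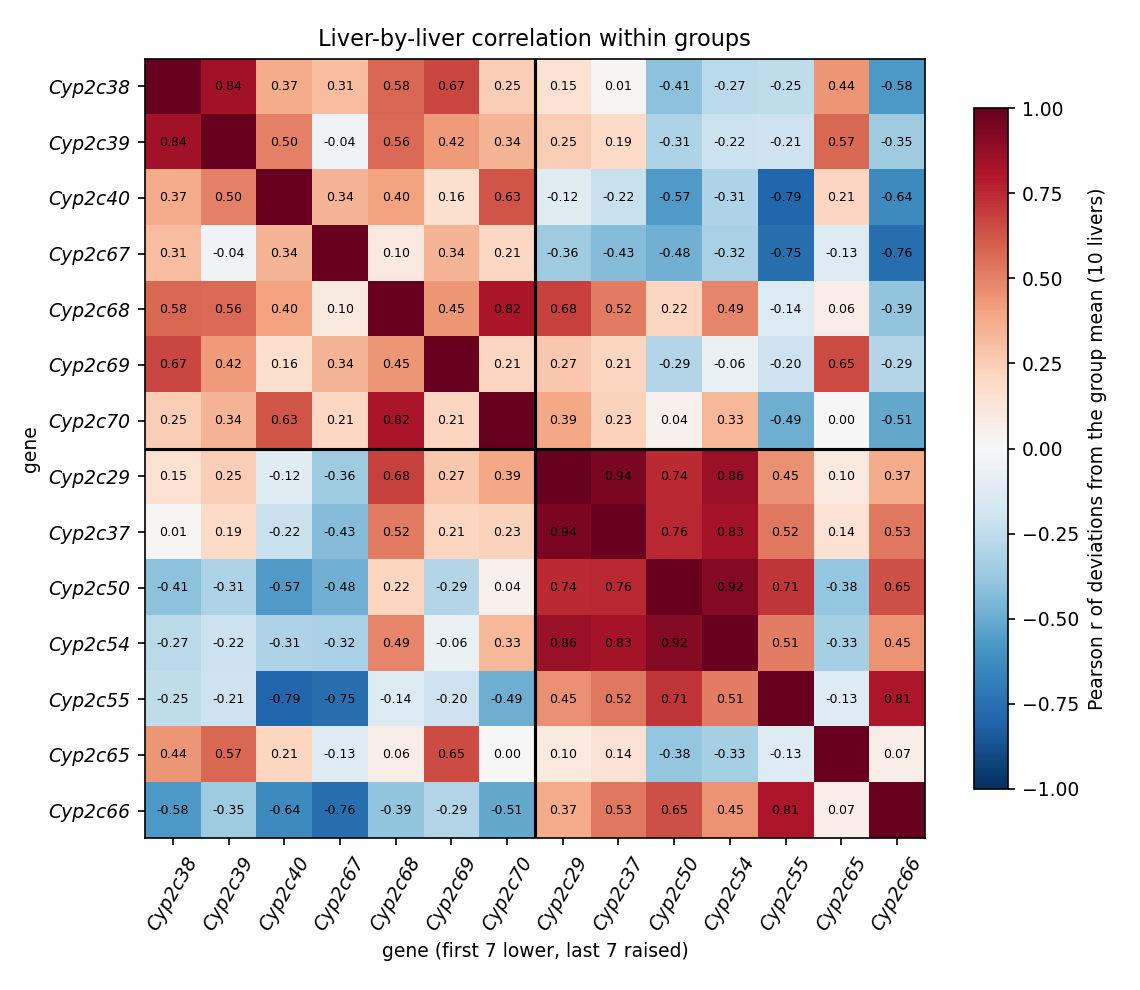
Pearson r between deviations of log2 CPM from the group mean over 10 livers for the 14 *Cyp2c* genes, with the 7 lower genes first and the 7 raised genes after the black lines. The strongest pairs among the lower genes are *Cyp2c38* with *Cyp2c39* (0.836) and *Cyp2c68* with *Cyp2c70* (0.819), and blue fields fill much of the block of lower against raised genes.

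Among 7779 genes outside the cluster with a mean of at least 10 CPM, the genes most alike in these deviations were read out for each gene as a description. *Cyp2c38* was most like *Ppp2r2d* (r = 0.959), *Cyp2c39* was most like *Ppp2r2d* (0.897) and *Hamp2* (0.880), and *Cyp2c40* was most like *Mcl1* and *Kdm1a* (both 0.878). For *Cyp2c67* they were *Rfc1* (0.915) and *Smad4* (0.890), for *Cyp2c68* *Brix1* (0.952) and *Setd4* (0.943), for *Cyp2c69* *Ptpn9* (0.901) and *Ccz1* (0.891), and for *Cyp2c70* *Nicn1* (0.921) and *Gsdmd* (0.902). The highest of 7779 values is large by selection, and 10 livers enter each.

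Other genes of the same pathways were read from lists. Over all 13219 tested genes, edgeR called 101 higher and 35 lower, and DESeq2 called 291 higher and 172 lower. At an unadjusted P under 0.05 by edgeR, 7.49% of all were lower. The share that was higher is not given here, so counts of list genes higher at that threshold have no background beside them. Of 17 bile acid synthesis genes, 0 were called by edgeR, 2 had an unadjusted P under 0.05 (both lower), and DESeq2 called *Scp2* lower. *Cyp7a1*, the rate-limiting enzyme of bile acid synthesis, had a log2 fold change of -0.73 (SE 0.37, adjusted P = 0.367 by edgeR). *Cyp8b1* had 0.24, *Cyp27a1* 0.15, *Cyp7b1* 0.13 and *Cyp2a12* 0.04 on the log2 scale. Of 15 tested genes of arachidonic acid P450 and epoxide metabolism outside *Cyp2c*, 3 rose and 0 fell by edgeR, with 3 lower at an unadjusted P under 0.05. *Cyp4a12b* (0.80, SE 0.14, adjusted P = 0.0141 by edgeR) and *Cyp4a12a* (0.85, SE 0.18, adjusted P = 0.0428 by edgeR) encode ω-hydroxylases, and *Ephx1* (0.61, SE 0.11, adjusted P = 0.0182 by edgeR) is the microsomal epoxide hydrolase. *Ephx2*, the soluble epoxide hydrolase, had a value of -0.06. Of 20 retinoid metabolism genes, 0 were called by edgeR, with 4 higher and 3 lower at an unadjusted P under 0.05 and 5 called by DESeq2. *Cyp26a1*, a retinoic acid hydroxylase, had a log2 fold change of 0.73 (SE 0.17, adjusted P = 0.0589 by edgeR). Of 22 liver transcription factors, 0 were called by edgeR, with 2 higher and 3 lower at an unadjusted P under 0.05 and 3 called by DESeq2. The median log2 fold change was 0.03 for the bile acid list, -0.07 for arachidonic acid and epoxide metabolism, 0.06 for retinoids and -0.06 for the transcription factors, against 0.00 over all tested genes.

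Zonation and cell type markers were read in the same way, with the same counts over all tested genes as background. Counts of markers higher at an unadjusted P under 0.05 again have no background beside them. Of 8 pericentral markers, 6 had a value above 0 and 2 a value below 0. By edgeR 2 rose, *Cyp1a2* (1.76, SE 0.17, adjusted P = 0.000124) and *Lect2* (0.55, SE 0.12, adjusted P = 0.0424). At an unadjusted P under 0.05 4 were higher, and DESeq2 called 3. Of 8 periportal markers 6 had a value below 0, 4 were lower and 1 was higher at an unadjusted P under 0.05, and edgeR called *Hal* lower (-0.46, SE 0.09, adjusted P = 0.0264), with 1 called by DESeq2. Of 10 male-biased liver genes 2 rose by edgeR, *Cyp4a12a* and *Cyp2d9* (0.58, SE 0.11, adjusted P = 0.0264), while 5 were higher at an unadjusted P under 0.05 and DESeq2 called 4. Of 5 tested female-biased genes 0 were called by edgeR or DESeq2 and 0 had an unadjusted P under 0.05. Of 6 hepatocyte markers 0 were called by edgeR, 2 were lower at an unadjusted P under 0.05 and DESeq2 called 1. All 6 had a value below 0, as did 49.0% of all tested genes. Their summed CPM was 73998.9 to 86021.4 in control and 62059.5 to 74957.9 in MI-883 livers. Summed CPM of 10 leukocyte and Kupffer cell markers was 257 to 432 in control and 240 to 551 in MI-883 livers, and of 6 cholangiocyte markers 25.1 to 118 and 35.1 to 191. The 8 stellate cell markers summed to 236 to 384 and 276 to 459 CPM, and the 7 endothelial markers to 115 to 155 and 126 to 179 CPM. In these 4 lists 0 genes were called by edgeR, with 9 higher at an unadjusted P under 0.05 and 1 called by DESeq2. Median log2 fold changes were 0.34 for pericentral, -0.29 for periportal, -0.21 for hepatocyte, 0.03 for leukocyte, 0.27 for stellate, 0.29 for endothelial and 0.54 for cholangiocyte markers, and 0.40 for male-biased and -0.10 for female-biased genes. The part of these markers in the values of the 7 genes was not tested.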

How the data were processed

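Paired-end reads of liver RNA from 5 control and 5 MI-883-treated mice were trimmed with fastp 0.23.0, per the submitters' processing notes, then aligned by STAR and assigned to genes by featureCounts, as stated in the paper. The versions of STAR and featureCounts, the annotation and the strand setting are not given in the sources used here. The authors deposited raw counts per gene under Entrez gene numbers, without normalization, and these were matched to RefSeq symbols of GRCm38. The library kit was a directional one, per the labels. Libraries were grouped by their labelled condition. The labels number them as separate liver samples without naming the animals. The paper states that they came from 5 animals per group, so P values measure the spread between animals.

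Genes whose counts added up to 60 or more over the 10 livers were fitted in R 4.3.3 by the quasi-likelihood method of edgeR 4.0.16, after TMM scaling and with no term but the condition. P values were adjusted by Benjamini-Hochberg, and 0.05 was the threshold. The standard error is the log2 fold change divided by the square root of F. DESeq2 1.42.0 and other filters and scalings were alternatives. Deviations of log2 CPM (prior count 2) from group means were correlated, with exact two-sided permutation of livers within groups. Promoters are from RefSeq GRCm38.p6 and aligned with Biopython 1.88 in Python 3.11.15, and exon lengths and shared stretches are from GENCODE M21. The scripts were tested on simulated data. Counting floors of 3 counts cover counting error only.

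The 7 genes and all gene lists were chosen with earlier results of these data known. Genes named outside the 7 are list members with an adjusted P under 0.05, at most 4 per list, 7 preset bile acid, retinoid and epoxide genes, the 2 genes most alike to each of the 7, and the tested neighbours of the cluster. *Alb*, *Scp2* and the raised *Cyp2c* genes are named where a value turns on them. A further gene that this rule selects was left out and is not reported here.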

Additional observations from a re-analysis of the deposited data

Results flagged for a closer look

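In 2 of the 18 sets of 5 livers checked, 1 liver stood apart from the other 4, where chance gives about 1 in 20. The *Cyp2c38* level of control liver 3 was 50.5 CPM, against 84.5 CPM in the nearest control liver. The *Cyp2c69* level of control liver 5 was 0.921 CPM, from 21 counts, against 0.307 CPM in the nearest control liver.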

How the results depend on the processing

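The log2 fold changes of the 7 genes, of the summed counts of the 4 related genes, their median, and the order of levels kept their direction or order under all alternatives that gave a value. *Cyp2c69* was below the count minimum in all but 1 of the fits that left out a liver. Of all tested genes, edgeR called 136, DESeq2 463 and edgeR with a replicate block 89, and leaving out each liver in turn gave 62 to 208. Of the 7 genes, 0 were called by edgeR, 5 by DESeq2 and 0 to 1 without each liver, *Cyp2c38* without control liver 3 and *Cyp2c67* without MI-883 liver 3. The number of genes without overlap was 3 with TMM, 2 with the size factors of DESeq2, 2 with total counts and 1 with 60 counts demanded in every liver. It was 3 to 5 without each liver, with 5 reached without control liver 3. Overlap is less likely with fewer livers, so that last range does not show stability. With 60 counts demanded in every liver, 4 of the 7 genes were tested. The cause of these differences was not tested. Replicate numbers did not pair the livers: the correlations of the deviations of same-numbered livers were 0.360, -0.121, -0.102, 0.0761 and 0.0790, and 1 of 10 livers correlated best with its own number. With the replicate block 0 of the 7 genes were called. Depth limits *Cyp2c69*, which had at most 21 counts in a liver, and *Cyp2c40*, with at most 90.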
